A study of Mus musculus with 11 samples.

Results

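The kinesin superfamily was followed in E12.5 mouse cortex that had lost 1 of its own members, Kif20a, which moves on microtubules at the end of cell division. Kinesin genes were taken as the rows whose symbol is Kif or Kifc followed by a digit, leaving out Kif20a and its closest relatives Kif20b and Kif23, and averaging 10 or more normalized counts in a table. Of the 20475 genes listed in each of the 2 tables, 38 matched by symbol. The minimum was passed by 35 in the germline table and by 36 in the inducible table, and 35 passed in both. They were split into 10 mitotic kinesins, 12 neuronal transport kinesins and 13 others. Kif2b was listed at 0 in all libraries, Kif12 had a mean of 0.310 normalized counts in the germline table, and neither passed. Kif17, a dendritic transport motor, passed only in the inducible table, where its mean was 14.3 in the wild-type and 14.4 in the knockout libraries, and it was left out of the counts over both tables.

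The study compared poly(A) RNA of E12.5 forebrain, which the paper names cortex, between wild-type and Kif20a knockout embryos in 2 experiments. In the germline experiment 3 wild-type libraries stood against 3 from knockouts, in which a LacZ and neomycin cassette interrupts Kif20a (the knockout-first allele). In the inducible experiment 2 libraries carried the label wild type and 3 came from knockouts, labelled conditional, in litters whose mothers received tamoxifen on 2 days from E9.5. In these knockouts CreERT2, expressed from a Nestin transgene and therefore in neural progenitors, deletes the floxed part of Kif20a fl/fl. Both alleles descend from 1 embryonic stem cell clone, and the methods do not say whether the 2 inducible controls carried floxed alleles, as the Kif20a fl/fl controls of other experiments in the study did. The labels do not say how many embryos entered a library, so the p-values measure the spread between these libraries.

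Kinesins are motors that split ATP to walk along microtubules or to take microtubule ends apart. The mitotic members build the spindle, move chromosomes and are made mainly in dividing cells, which in the early cortex are the progenitors lining the ventricle. The transport members carry vesicles, mitochondria and other cargo, and in neurons they supply the axon and dendrites. A forebrain library of this age therefore holds both kinds of motor side by side.

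Kif20a itself was read as a check of the labels. Its germline wild-type values were 2456, 2295 and 2680 normalized counts, and the knockouts held 409, 374 and 503, a log2 fold change of -2.54 ± 0.15 (SE) with an adjusted p of 0.00845 (limma, Benjamini-Hochberg). In the inducible comparison it was at 4760 and 4844 in the wild-type and at 3125, 2915 and 2853 in the knockout libraries, a log2 fold change of -0.70 ± 0.057 with an adjusted p of 0.0107 (limma, Benjamini-Hochberg). The inducible knockouts thus held 0.617 of the wild-type level of Kif20a. The germline adjusted p was over 0.05 without any 1 of the wild types or knockout replicate 1, at 0.107 to 0.185, and the inducible one without either wild type or knockout replicate 2, at 0.142 to 0.193 (limma, Benjamini-Hochberg). Kif20a is 1 of 146 rows of the inducible table that stand at another position than in the germline table, and 100 of these rows, Kif20a included, hold at most 2 decimals where most rows of that table hold more. Whether they were made in the same way as the other rows is not known, which limits the inducible check. None of the kinesin genes described here is among them.

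The sexes of the embryos were not balanced. Of the Y-linked genes Kdm5d, Eif2s3y, Uty and Ddx3y, all 4 lay between 0 and 3.17 normalized counts in both inducible wild types. In the 3 inducible knockouts Kdm5d was at 1350.2, 1259 and 1386, and Eif2s3y at 919.5, 863 and 1039.6. Uty was at 547, 265 and 488 and Ddx3y at 393, 2 and 188, so Ddx3y in knockout replicate 2 lay in the wild-type range. By Kdm5d, Eif2s3y and Uty, male RNA was thus present in all inducible knockouts and near or at 0 in both wild types. Sex and genotype therefore cannot be told apart in that comparison. The limits are that Ddx3y in knockout replicate 2 goes the other way and that these rows too stand at another position. In the germline comparison Kdm5d was at 485, 1.63 and 1442.5 in the wild types and 0.520, 0 and 398 in the knockouts, so that both groups held libraries with and without male RNA. Kif4 is the X-linked kinesin described here.

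Totals were 13048716 to 15551274 normalized counts in the germline and 24118520 to 24497307 in the inducible libraries, after a normalization that equalizes libraries within a table, so levels were not compared between tables. Knockout replicate 2 of the germline comparison stood apart from the others. It lay at 91.2 on a first principal component that held 58.0% of the variance over all genes tested, against -38.4 to 3.84 for the other 5 libraries. Its 16 neuron markers summed to 108175 normalized counts, against 52940 to 63121 in the wild types and 28678 and 35199 in the other knockouts. Its 7 mesenchyme markers summed to 81.7, against 4006 to 7557 in the wild types and 17856 and 9284 in the other knockouts, and its 6 microglia markers to 15.8, against 375 to 618 in the wild types. Its 7 erythroid markers summed to 21889, against 64388 to 93063 in the wild types, and its 10 progenitor markers to 45274, within the wild-type range of 44120 to 48890. That sum held moves in both directions. Of the 10 progenitor markers, 6 were at their highest value of all libraries, against 33.8% of genes tested, and 2 at their lowest, against 30.5%. Pax6 was at 3715, against 2254 to 2331 in the wild types, and Nes at 5312, against 6852 to 11879. None of the markers of these lists was at or under 3 normalized counts in all libraries. Germline values that this library moves are therefore given without it too.

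In wild-type cortex both classes of motor were abundant, and the levels per kilobase of exon covered a similar range. Among the mitotic kinesins of the germline table, Kif11, which slides spindle poles apart, had the highest level, at 750 to 965 normalized counts per kilobase in the 3 wild-type libraries. Kif22, which pushes chromosome arms away from the poles, followed at 691 to 743, below every Kif11 value, and Kif15, which keeps the spindle bipolar, at 606 to 739, overlapping with Kif22. Kif14 and Kif18a were the lowest, at 90.0 to 105 and 85.3 to 116, and their ranges overlapped. Lengths were those of all GENCODE exons, while reads were counted over RefSeq exons, so ranks between genes depend on the length used. Kif18a, with 9832 exon bases, was at 839 to 1136 normalized counts before division by length, above Kifc5b at 487 to 586.

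Among the transport kinesins of the germline table, Kif5c, a neuronal heavy chain of the conventional kinesin, had the highest level, at 872 to 1109.5 normalized counts per kilobase, above every value of the other transport genes. Its ubiquitous relative Kif5b (536 to 621) and Kif21a (606 to 670.5), which restrains microtubule growth in axons, came next and overlapped. Kif1a, which carries synaptic vesicle precursors, lay at 448 to 679 and Kif1b, which carries mitochondria and vesicles, at 458 to 570.1, and both ranges overlapped with those of Kif5b and Kif21a. The lowest were Kif13b, at 52.6 to 68.4, and Kifc2, a minus-end motor of dendrites, at 20.5 to 28.6.

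In the inducible wild types Kif11, Kif22 and Kif15 again led the mitotic class and Kif5c the transport class. Kif11 and Kif22 were at 1559.7 and 1646 and at 1537 and 1659 normalized counts per kilobase, overlapping each other, and Kif15 was at 915 and 993. Kif5c was at 1593 and 2010, Kif1a at 1112 and 1311, and Kif1b at 860.3 and 930.4. Kif2a, which removes tubulin from microtubule ends, Kif26a, a kinesin with little motor activity, and Kif1c, a vesicle motor, led the other kinesins in both tables, at 221 to 260.5, 186 to 267 and 128 to 146 normalized counts per kilobase in the germline wild types. Summed per kilobase, the transport class was 1.29, 1.60 and 1.21 times the mitotic class in the germline wild types and 1.25 and 1.04 times in the inducible wild types.

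**Figure D1:**
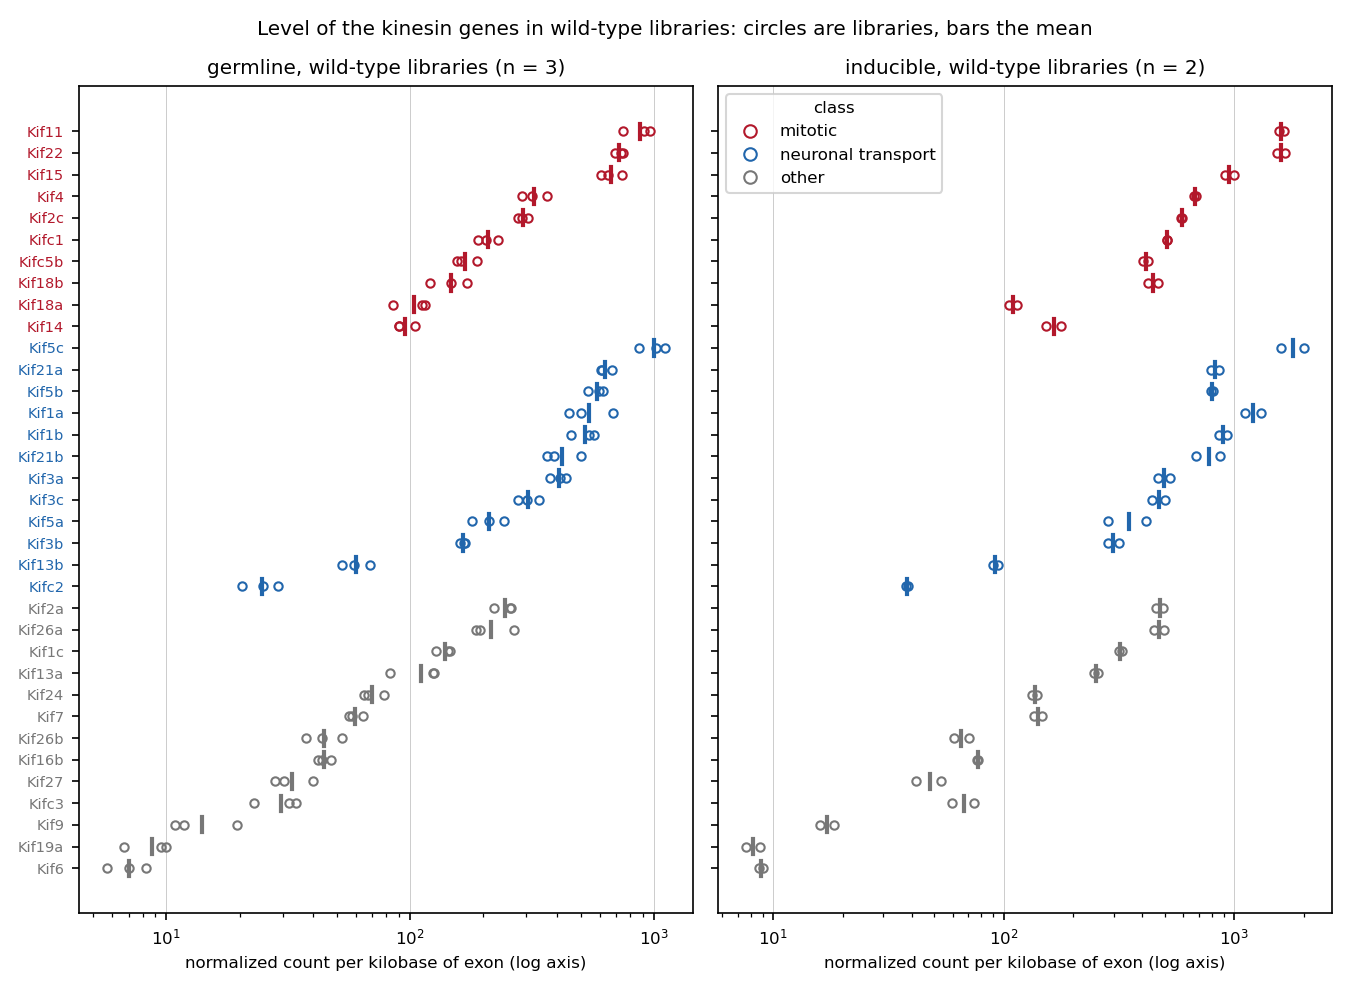
Level of each of the 35 kinesin genes in the wild-type libraries, as normalized counts per kilobase of exon on a log axis, germline on the left (n = 3) and inducible on the right (n = 2), with circles for libraries and bars for the mean. In the germline panel Kif5c, at 872 to 1109.5, and Kif11, at 750 to 965, lead their classes, and the mitotic and transport genes span overlapping ranges.

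The promoters of the kinesin genes were read for motifs of dividing cells. Genes that peak in late cell cycle often carry the cell cycle genes homology region (CHR), read by the MuvB complexes, and CCAAT boxes bound by NF-Y. RefSeq windows of 300 bases, from 250 before to 50 after the start site (GRCm38.p6, another build than the mm9 of the expression tables), were found for 28 of the 35 genes. They were searched for TTTGAA and its reverse complement TTCAAA (CHR) and for CCAAT and ATTGG on both strands, and matches of the 2 motifs can share at most 1 base. The CHR letters stood in 9 of 10 mitotic kinesins, in 1 of the 7 transport kinesins with a window and in 2 of the 11 others, against 20.2% of the 27025 genes with a window. CCAAT stood in 7 of 10, 3 of 7 and 4 of 11, against 41.1% of genes. Both stood in 7 of 10 mitotic kinesins and in 0 of the 7 transport kinesins, against 7.97% of genes. A match is a description of the letters and does not show binding.

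Stretches from 150 bases before to 30 after the start site are shown for 3 mitotic kinesins, Kif11 as the most abundant and Kif18b and Kifc1 for their germline values given later, and for 2 transport kinesins, Kif5c as the most abundant and Kif3b, the member with the lowest germline fold change. Capitals mark CHR and CCAAT letters on either strand.
Kif11, chr19:37376232-37376411, plus strand: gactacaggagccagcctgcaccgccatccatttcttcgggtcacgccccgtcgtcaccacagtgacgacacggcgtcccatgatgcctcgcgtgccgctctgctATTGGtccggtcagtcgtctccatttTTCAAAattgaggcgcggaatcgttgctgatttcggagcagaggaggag
Kif18b, chr11:102925095-102925274, minus strand: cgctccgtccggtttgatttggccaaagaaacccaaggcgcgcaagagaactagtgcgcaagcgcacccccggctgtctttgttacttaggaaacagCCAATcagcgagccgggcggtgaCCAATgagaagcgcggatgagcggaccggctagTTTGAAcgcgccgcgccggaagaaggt
Kifc1, chr17:33890604-33890783, minus strand: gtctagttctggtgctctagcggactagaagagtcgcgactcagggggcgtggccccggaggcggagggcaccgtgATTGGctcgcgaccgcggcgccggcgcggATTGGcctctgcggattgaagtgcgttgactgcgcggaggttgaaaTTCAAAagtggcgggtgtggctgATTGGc
Kif5c, chr2:49619136-49619315, plus strand: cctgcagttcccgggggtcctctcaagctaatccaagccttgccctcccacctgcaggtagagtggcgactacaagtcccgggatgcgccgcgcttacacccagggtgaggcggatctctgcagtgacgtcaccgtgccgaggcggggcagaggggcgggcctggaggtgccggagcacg
Kif3b, chr2:153291266-153291445, plus strand: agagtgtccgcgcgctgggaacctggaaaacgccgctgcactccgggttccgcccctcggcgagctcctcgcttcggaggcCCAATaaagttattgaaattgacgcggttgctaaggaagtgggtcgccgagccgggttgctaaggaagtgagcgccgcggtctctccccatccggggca
The Kif11 stretch holds 1 CCAAT and 1 CHR match before the start site, the Kif18b stretch 2 CCAAT matches and a CHR match past it, and the Kifc1 stretch 3 CCAAT matches and 1 CHR match. The Kif5c stretch holds neither, and the Kif3b stretch 1 CCAAT match. Kifc1 and its near-copy Kifc5b share a run of 68 identical bases in their windows.

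In the germline comparison, no kinesin gene passed the study's thresholds of a 1.5-fold change and a P of at most 0.05, 0 of 35 against 2.74% of the 13938 genes tested with limma. No kinesin had an adjusted p under 0.05 (limma, Benjamini-Hochberg), and the lowest adjusted p was 0.779. A P of at most 0.05 was reached by 2 of 35, against 5.39% of genes tested. The knockout and wild-type libraries did not overlap for 6 of 35, 5 higher and 1 lower in the knockouts, against 13.5% of genes tested, 5.90% higher and 7.55% lower. The median log2 fold change was 0.064 over the mitotic, -0.011 over the transport and 0.084 over the other kinesins, against -0.043 over all genes tested. A fitted log2 fold change above 0 was found for 7 of 10 mitotic and 6 of 12 transport kinesins, against 44.0% of genes. With 1 library left out at a time, between 0 and 3 kinesins passed the study's thresholds, 2 without knockout replicate 2 and 3 without knockout replicate 3. Of the 13938 genes tested, 8.79% passed without knockout replicate 2. Without knockout replicate 3, 618 of them passed as higher and 406 as lower.

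The kinesin with the smallest P was Kif3b, the motor subunit that pairs with Kif3a and the adaptor Kifap3 to carry cargo in axons and cilia (mm9, chr2:153117149-153159126, plus strand). It was at 934, 943 and 899 normalized counts in wild-type and at 645, 701 and 764 in the germline knockout libraries. All 3 knockouts lay below all wild types, and the library that stood apart lay between the other knockouts. The log2 fold change was -0.40 ± 0.12 (SE) and it had an adjusted p of 0.779 (limma, Benjamini-Hochberg). Without knockout replicate 2 it was -0.40 ± 0.13, with an adjusted p of 0.248 (limma). Kif3a was at 2570, 2411 and 2190 in the wild types and 2072, 3836 and 1990 in the knockouts, and Kif3c, a neuronal subunit, at 2092, 2330 and 1916 and at 1458, 2877 and 1501. For both, the knockouts lay on either side of the wild types. Kifap3 had a log2 fold change of -0.061 ± 0.18, and of -0.23 ± 0.13 without knockout replicate 2.

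The other germline P of at most 0.05 belonged to Kif18b, which shortens astral microtubules in mitosis (mm9, chr11:102766843-102786438, minus strand). It was at 433, 527 and 610 normalized counts in wild-type and at 627, 827 and 667 in the knockout libraries, so the groups did not overlap, by a gap of few counts. The log2 fold change was 0.44 ± 0.18 (SE) and it had an adjusted p of 0.779 (limma, Benjamini-Hochberg). Without knockout replicate 2 it was 0.32 ± 0.17 and no longer reached a P of 0.05 in limma.

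The highest germline fold changes were those of the minus-end spindle motors Kifc5b (mm9, chr17:27054036-27069524) and Kifc1 (mm9, chr17:34012611-34027606), whose product bundles spindle microtubules. Kifc5b was at 506, 487 and 586 normalized counts in the wild types and 679, 1374 and 620 in the knockouts. Kifc1 was at 648, 696 and 782 in the wild types and 840, 1614 and 809 in the knockouts. Every knockout lay above every wild type for both genes, and knockout replicate 2 lay far above the other 2. The log2 fold changes were 0.67 ± 0.30 for Kifc5b and 0.55 ± 0.27 for Kifc1 (SE), and without that library 0.31 ± 0.15 and 0.22 ± 0.14. None of these 4 estimates reached a P of 0.05 in limma. Without knockout replicate 3, both genes and Kif26b passed the study's thresholds, at 0.88 for Kifc5b and 0.72 for Kifc1 and Kif26b. In that fit 618 of the 13938 genes tested passed as higher. The transcripts of Kifc1 share 45.3% of their 50-base stretches with Kifc5b, and those of Kifc5b 34.9% with Kifc1, so reads may have been split between them and they are not independent measures.

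Kif14, a midbody kinesin needed for abscission, was the fourth mitotic kinesin without overlap, at 789, 793 and 921 normalized counts in the wild types and 1108, 1043 and 934 in the knockouts, with a log2 fold change of 0.30 ± 0.13 (SE). The 6 remaining mitotic kinesins, Kif2c, Kif4, Kif11, Kif15, Kif18a and Kif22, had overlapping groups and log2 fold changes between -0.074 and 0.073. Kif11 was at 4386, 3616 and 4651 in the wild types and 4545, 4386 and 4303 in the knockouts. Its interval of -0.24 to 0.38 (95% confidence) leaves room for changes of either sign. Kif4, a chromosome arm motor, and Kif15 were at their lowest value of all 6 libraries in knockout replicate 2, at 1314 and 2639 normalized counts.

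Kif7, a regulator of Hedgehog signalling in the primary cilium, was the remaining gene without overlap, at 253, 262 and 290.2 normalized counts in the wild types and 357, 385 and 308 in the knockouts, with a log2 fold change of 0.38 ± 0.16 (SE). Kif9, a motor of motile cilia, had the lowest germline value of the other kinesins, -0.40 ± 0.40, and -0.10 ± 0.34 without knockout replicate 2. Kif9 was at 88.0, 49.1 and 53.3 in the wild types and 46.8, 30.6 and 69.3 in the knockouts, with overlapping groups.

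Several neuronal transport kinesins varied widely within the knockouts. Kif5c was at 6228, 7924 and 7269 normalized counts in the wild types and at 4531, 12164 and 4538 in the knockouts. Kif21b, a processive motor of dendrites and axons, was at 3933, 5432 and 4229 and at 2774, 9100 and 2700, and Kif1a at 3725, 5644 and 4159 and at 3128, 8899 and 3523. In each, knockout replicate 2 was above every wild type and the other 2 knockouts were below every wild type. Kif5a, a neuronal heavy chain tied to axonal disease, showed the same order, at 1207, 1626 and 1421 in the wild types and 1009, 2879 and 986 in the knockouts.

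The log2 fold changes of these genes over all libraries were therefore small beside their errors, at -0.17 ± 0.38 for Kif5c, -0.14 ± 0.46 for Kif21b, 0.055 ± 0.40 for Kif1a and 0.013 ± 0.41 for Kif5a (SE). Kifc2 had the highest transport fold change, 0.51 ± 0.49, and rested on 1 library, since its knockouts were at 94.7, 245 and 61.3 normalized counts against 92.0, 66.1 and 80.5 in the wild types. Without that library the log2 fold change was -0.048 for Kifc2, -0.42 for Kif1a and -0.50 for Kif5a. Knockout replicate 2 held the highest value of all 6 libraries for 10 of the 12 transport kinesins, against 33.8% of genes tested, and for 3 of the 10 mitotic ones.

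**Figure D2:**
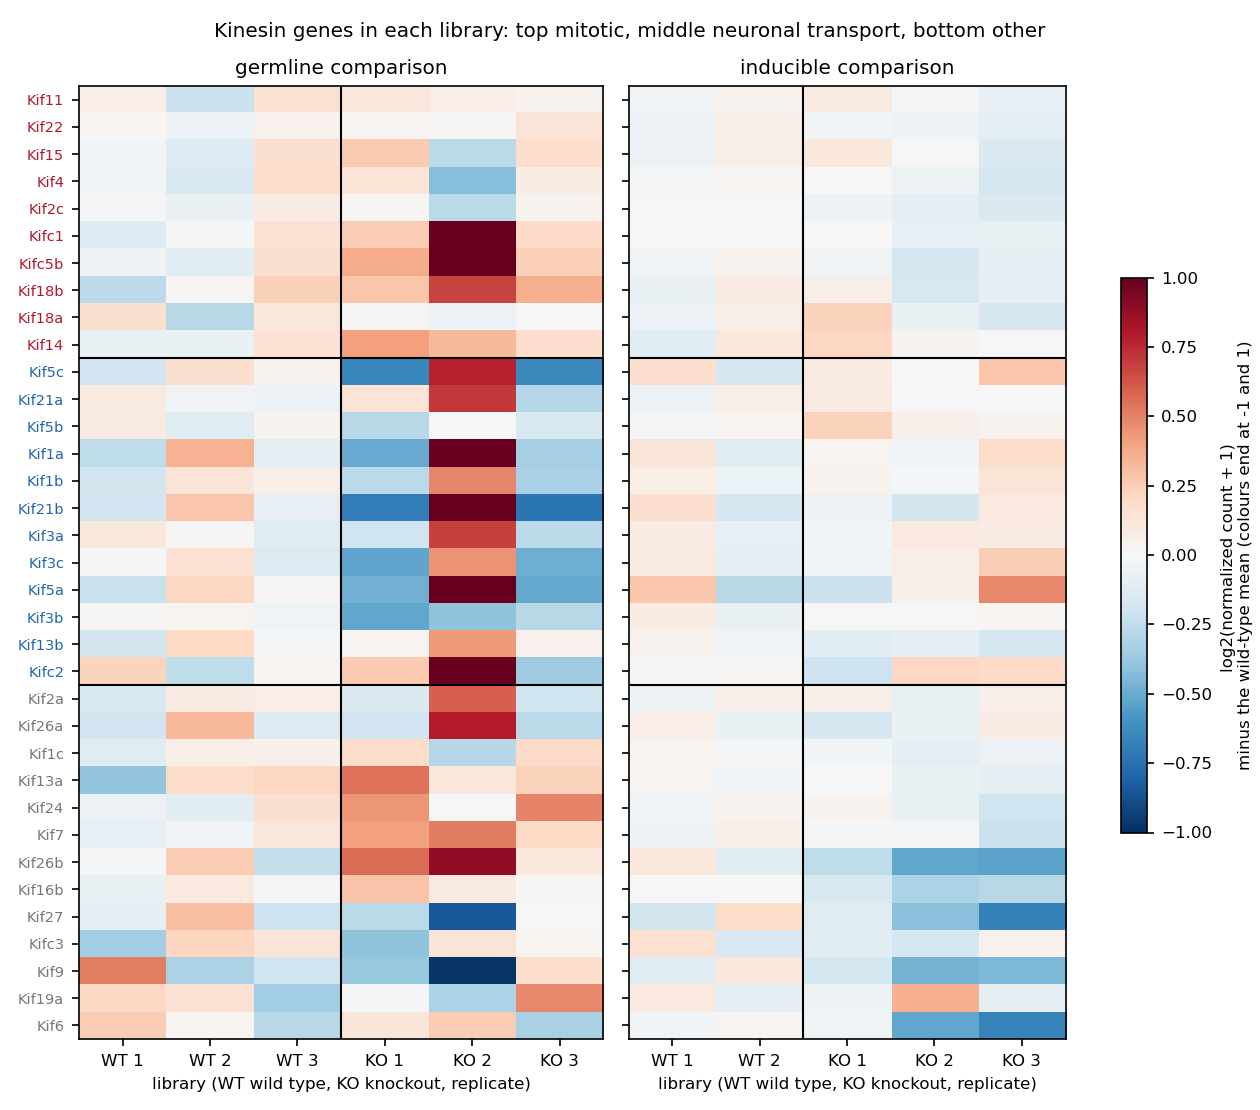
Each kinesin gene in each library, as the difference of log2(normalized count + 1) from the mean of the wild-type libraries of its table, with genes in rows and libraries in columns, where WT is wild type and KO knockout. In the germline panel the transport block is mostly red in KO 2, Kif3b and Kif5b apart, where Kif5c was at 12164 normalized counts, and mostly blue in KO 1 and KO 3, where it was at 4531 and 4538, and the inducible panel is paler.

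Without knockout replicate 2, the 2 classes lay on opposite sides of 0. All 10 mitotic kinesins had a fitted log2 fold change above 0, from 0.0020 for Kif18a to 0.32 for Kif18b and with a median of 0.16, against 44.2% of genes tested. Of the 12 transport kinesins 11 were below 0, with a median of -0.35, against 55.8% of genes, and Kif13b was above it at 0.037. The median over all genes tested was -0.040. Kif5c and Kif21b then passed the study's thresholds as lower, 2 of 35 kinesins against 8.79% of genes in either direction and 4.63% lower, with log2 fold changes of -0.65 ± 0.14 and -0.71 ± 0.15 (SE) and an adjusted p of 0.142 for both (limma, Benjamini-Hochberg). A P of at most 0.05 was reached by 7 of 35, against 14.4% of genes. The 6 lower ones were all transport kinesins, Kif1a, Kif3b, Kif3c, Kif5a, Kif5c and Kif21b, and the 1 higher was Kif24, which acts at centrioles, at 0.47 ± 0.14. Knockout and wild-type values were apart for 9 of the 12 transport kinesins, all lower in the knockouts, against 20.1% of genes. They were apart for 5 of the 10 mitotic kinesins, all higher, against 13.0%. With 2 knockout libraries left, non-overlap was more common over all genes too, at 33.0%. In wild-type replicate 3 too, all 10 mitotic kinesins lay above the mean of the wild types, by 0.14 log2 on average. So did 7576 of the 13938 genes tested. In knockout replicates 1 and 3, 10 and 9 of the 10 did, by 0.19 and 0.14, beside 6182 and 6265 of all genes. A rise of about this size was thus also seen in a wild-type library. The 3 libraries are not like for like, since wild-type replicate 3 is part of that mean.

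Markers of cell types moved with this pattern. Without knockout replicate 2, 12 of the 16 neuron markers passed the study's thresholds as lower, against 4.63% of genes, with a median log2 fold change of -0.83. With that library 0 of 16 passed, against 2.74% of genes, or reached a P of 0.05 in limma, against 5.39%. Knockout replicate 2 was set apart partly by its high sum of these same markers, so their count without it is not a separate result. The mesenchyme markers of knockout replicates 1 and 3 summed to 17856 and 9284 normalized counts, above every wild type. The 7 erythroid markers summed to 110283 and 112036 in these libraries, also above every wild type. The 6 forebrain identity markers summed to 9676 and 13277 in them and to 31985 in knockout replicate 2, against 15275 to 17412 in the wild types. The 10 progenitor markers summed to 45626 and 44789, within the range of the wild types, although Fabp7 and Lhx2 of that list passed the study's thresholds as lower without knockout replicate 2, at -0.84 and -0.64. The part of neuron, mesenchyme, erythroid, forebrain identity and progenitor markers in the kinesin values was not tested. In bulk libraries fewer neurons and less transport motor RNA per neuron cannot be told apart.

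The contrast named for these genes, the mean log2(normalized count + 1) of the mitotic minus that of the transport kinesins, was -0.68, -0.91 and -0.54 in the germline wild-type libraries. It was -0.21, -1.10 and -0.21 in the knockouts. Knockout replicates 1 and 3 lay above all wild types and replicate 2 below all of them. The knockout mean was 0.20 above the wild-type mean, with an SD of 0.51 between knockouts and 0.19 between wild types, so the difference was smaller than the spread between knockouts and about as large as that between wild types. Summed per kilobase, transport was 0.951, 1.92 and 0.946 times mitotic in the 3 knockouts. The mean of the mitotic class changed less between knockouts, from 10.4 to 10.5 on the log2 scale, than that of the transport class, from 10.6 to 11.6. Without Kifc1 and Kifc5b the mitotic mean was 10.7, 10.5 and 10.6 in the knockouts. Replicate 2 was then the lowest of them, while with these genes it was the highest. Without Kifc1 and Kifc5b the contrast was -0.42, -0.67 and -0.29 in the wild types and 0.0055, -1.10 and 0.024 in the knockouts. Against only the broadly expressed Kif1b, Kif3a, Kif3b, Kif5b and Kif13b, it was -0.69, -0.84 and -0.53 in the wild types. It was then -0.25, -0.66 and -0.35 in the knockouts, so replicate 2 lay within the wild-type range. Against the other 7 transport kinesins, more restricted to neurons, it was -0.68, -0.96 and -0.54 in the wild types. In the knockouts that value was -0.19, -1.41 and -0.11.

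**Figure D3:**
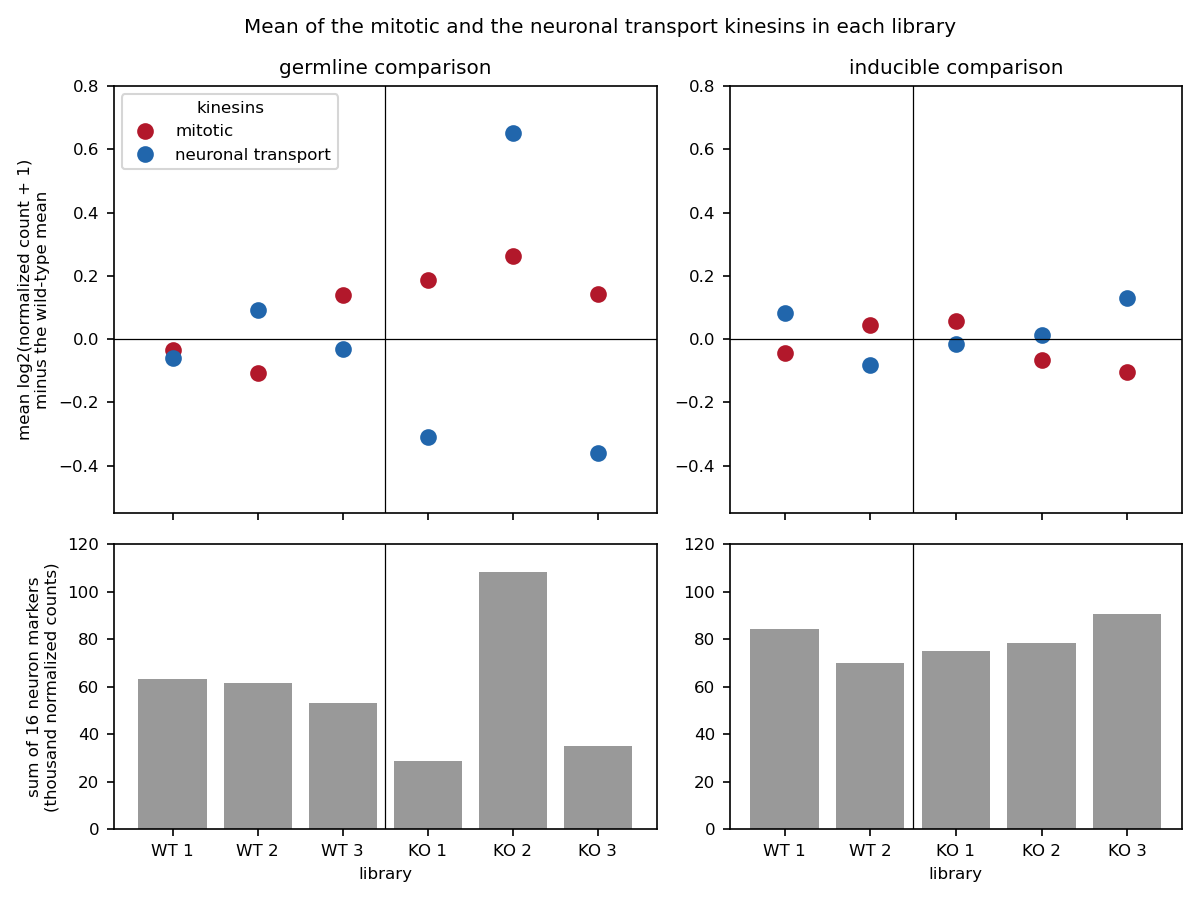
Upper panels show, for each library, the mean log2(normalized count + 1) of the 10 mitotic and the 12 neuronal transport kinesins minus the mean of the wild-type libraries, and lower panels the sum of 16 neuron markers in normalized counts, drawn in units of 1000. In germline KO 2 the transport mean and the neuron markers are both the highest of the 6 libraries, with the markers at 108175, and in KO 1 and KO 3 both are the lowest, with the markers at 28678 and 35199.

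In the inducible comparison the kinesin values were tighter. None of the 35 genes passed the study's thresholds, 0 of 35 against 1.29% of the 14081 genes tested with limma, and none had an adjusted p under 0.05, the lowest being 0.750 (Benjamini-Hochberg). A P of at most 0.05 was reached by 2 of 35, against 6.01% of genes. The groups did not overlap for 9 of 35, 1 higher and 8 lower in the knockouts, against 22.6% of genes, 10.4% higher and 12.2% lower. The median log2 fold change was -0.055 over the mitotic, 0.055 over the transport and -0.077 over the other kinesins, against -0.0019 over all genes. Of the mitotic kinesins 2 of 10 were above 0, and of the transport kinesins 10 of 12, against 49.2% of genes.

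Both genes with a P of at most 0.05 were among the other kinesins, and both were lower. Kif26b, a relative of Kif26a that acts in cell adhesion and signalling (mm9, chr1:180459256-180862986, plus strand), was at 550 and 474 normalized counts in the wild types and at 429, 356 and 353 in the knockouts, without overlap. Its log2 fold change was -0.43 ± 0.12 (SE) and it had an adjusted p of 0.750 (limma, Benjamini-Hochberg). In the germline comparison Kif26b was at 341, 411 and 292 in the wild types and 507, 637 and 372 in the knockouts. Its germline log2 fold change was 0.52 ± 0.24, and 0.33 ± 0.21 without knockout replicate 2. An overlapping gene on the other strand covers 11.6% of the Kif26b exon bases, and whether the counting used strand is not given in the sources used here. The same holds for Kif7, Kif2a, Kif3c, Kif4 and Kif27, with 18.2%, 17.4%, 17.1%, 15.1% and 7.44% of their exon bases. Kif16b, which carries early endosomes (mm9, chr2:142443210-142727267, minus strand), was at 514 and 509 in the inducible wild types and 457, 412 and 421 in the knockouts. Its log2 fold change was -0.25 ± 0.084 and it had an adjusted p of 0.825 (limma, Benjamini-Hochberg).

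Kif6, Kif9 and Kif27, all of low level and tied to cilia or flagella, had inducible log2 fold changes of about the size of Kif26b with larger errors, at -0.41 ± 0.24, -0.37 ± 0.19 and -0.41 ± 0.19 (SE). Kif6 was at 52.2 and 54.3 normalized counts in the wild types and 51.6, 36.8 and 33.1 in the knockouts, and knockout replicate 1 lay next to the wild types. Kif9 was at 71.9 and 83.0 and at 68.1, 55.3 and 56.3, again without overlap. Kif27 was at 186 and 239 and at 194, 158 and 132, with overlapping groups. Without wild-type replicate 1 the log2 fold change of Kif27 was -0.59. Kif6 passed the study's thresholds without knockout replicate 1, at -0.60, beside 90 of the 14081 genes tested that passed as lower. Kif1c also did not overlap, with a log2 fold change of -0.056 ± 0.051.

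The mitotic kinesins differed little in the inducible knockouts, with log2 fold changes from -0.097 for Kifc5b to 0.081 for Kif14. Kifc5b was at 1259 and 1321 normalized counts in the wild types and 1258, 1150 and 1212 in the knockouts, and Kif2c, which takes microtubules apart at centromeres, at 2589 and 2603 and at 2513, 2433 and 2354. These were the 2 mitotic genes without overlap, Kifc5b by about 1 normalized count. The intervals (95% confidence) were -0.25 to 0.054 for Kifc5b and -0.22 to 0.029 for Kif2c. Kif11 had an interval of -0.15 to 0.15. The X-linked Kif4 was at 3688 and 3772 in the wild types and 3733, 3595 and 3298 in the knockouts, with overlapping groups and a log2 fold change of -0.076 ± 0.064 (SE).

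Of the transport kinesins, Kif5b was the 1 kinesin with all inducible knockouts above the wild types, at 5837 and 5981 normalized counts in the wild types and 6920, 6106 and 6051 in the knockouts, with a log2 fold change of 0.10 ± 0.069 (SE). Kif13b, which carries receptors and signalling cargo, was lower without overlap, at 520 and 495 against 470, 474 and 449, with -0.13 ± 0.079. Kif5c was at 14358 and 11380 in the wild types and 13533, 12848 and 15490 in the knockouts, with 0.12 ± 0.11 and overlapping groups. Kif3b was at 1776 and 1598 and at 1688, 1688 and 1709, with 0.0091 ± 0.062. The germline value of Kif3b, -0.40, lies outside the inducible interval of -0.14 to 0.16 (95% confidence), and the difference between the comparisons was not tested.

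The inducible contrast of mitotic minus transport was -0.55 and -0.30 in the wild types and -0.35, -0.50 and -0.66 in the knockouts. The knockouts spanned the wild types, and the means differed by -0.080, with an SD of 0.18 between wild types and 0.15 between knockouts. The sum per kilobase of the transport class was 1.14, 1.18 and 1.37 times that of the mitotic class in the knockouts. The neuron markers summed to 84312 and 70195 in the wild types and 74997, 78607 and 90592 in the knockouts. The 5 libraries had the same order in the neuron sum and in the mean of the transport kinesins, with knockout replicate 3 the highest and wild-type replicate 2 the lowest, and the part of the one in the other was not tested.

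**Figure D4:**
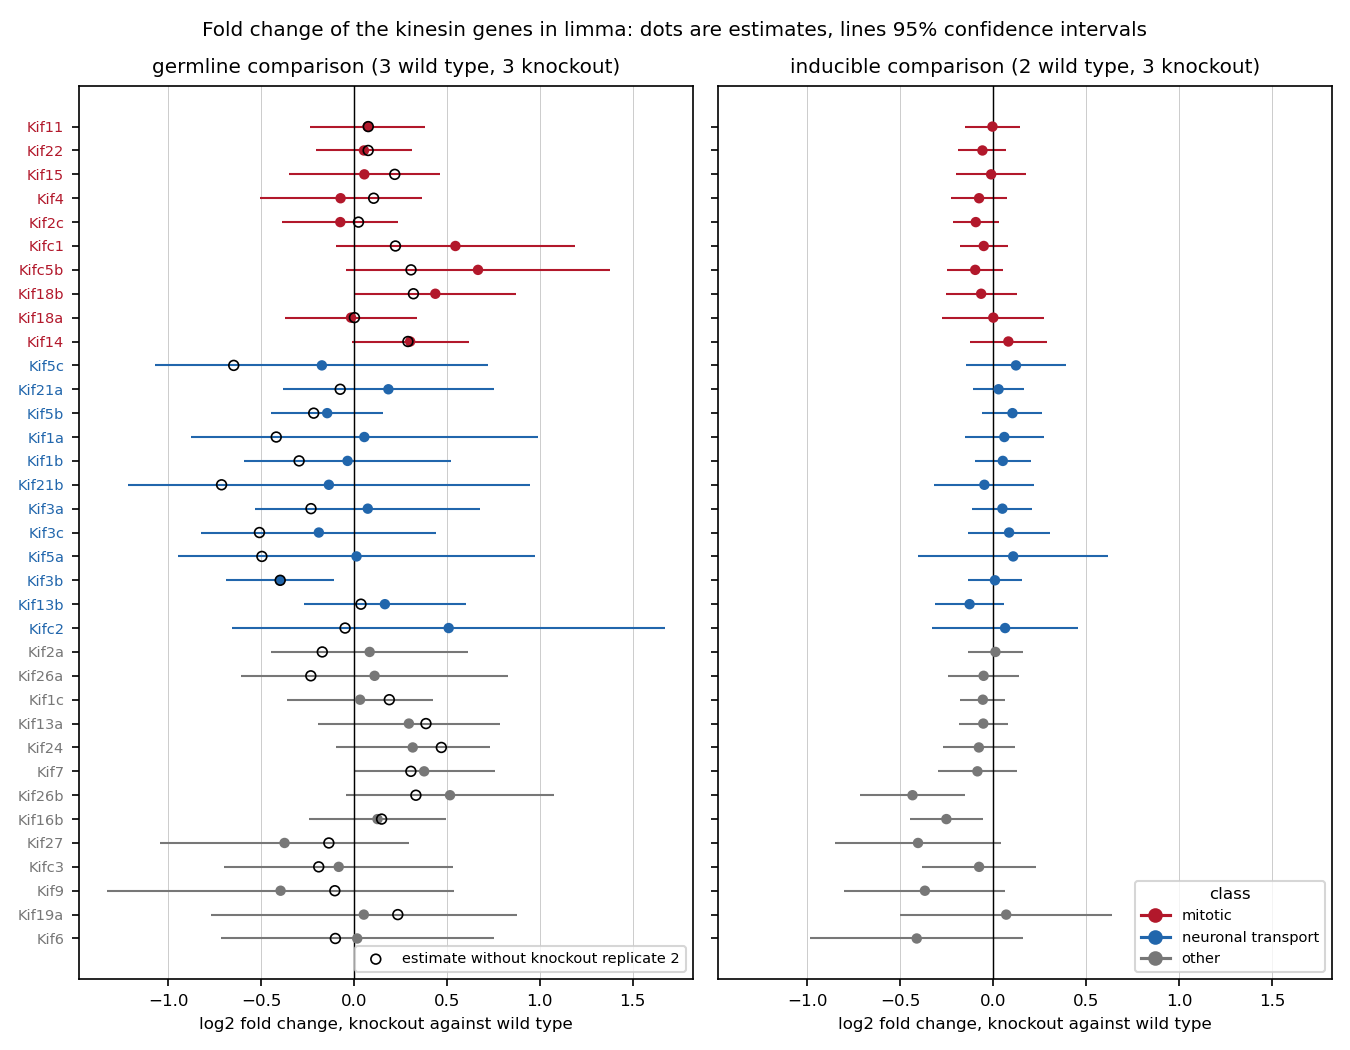
Log2 fold change of each kinesin gene in knockout against wild-type libraries, with dots for the limma estimate, lines for its 95% confidence interval and, in the germline panel, open circles for the estimate without knockout replicate 2. The open circles of the transport kinesins lie to the left of the dots, as for Kif5c, at -0.65 against -0.17, but not for Kif3b, at -0.40 in both, and the inducible intervals are narrower.

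The genes that work with the 2 classes of motor were counted whole. Of 28 cargo adaptors and dynein or dynactin subunits 27 were listed, Klc2 being the exception, and 1 passed the study's thresholds in the germline comparison, against 2.74% of genes: Trak2, which ties mitochondria to kinesin and dynein. It was at 1245, 1002 and 982 normalized counts in the wild types and 616, 686 and 831 in the knockouts, without overlap, with a log2 fold change of -0.60 ± 0.17 (SE) and an adjusted p of 0.779 (limma, Benjamini-Hochberg). Without knockout replicate 2 it was -0.58 ± 0.17, just short of a 1.5-fold change, so that 0 of 27 passed. In the inducible comparison it was at 1499 and 1361 and at 1593, 1479 and 1634, with 0.13 ± 0.071. Its relative Trak1 had a log2 fold change of 0.45 ± 0.30 in the germline and -0.17 ± 0.062 in the inducible knockouts. Its germline knockouts were at 1750, 2980 and 1234 normalized counts, and without knockout replicate 2 the germline value was 0.11 ± 0.16. Klc1, the light chain of conventional kinesin, had -0.094 ± 0.15 and -0.032 ± 0.082, and -0.22 ± 0.12 in the germline without knockout replicate 2. Without knockout replicate 2, 7 of the 27 reached a P of at most 0.05 in limma, all lower, against 9.01% of genes lower. The median over the 27 genes was -0.061 in the germline and -0.025 in the inducible knockouts. Without germline knockout replicate 2 it was -0.22, with 21 of 27 below 0, against 55.8% of genes.

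All 25 spindle partners were tested, and 0 passed the study's thresholds in either comparison, against 2.74% of genes in the germline and 1.29% in the inducible one. A P of at most 0.05 in limma was reached by 0 of 25 in the germline knockouts, against 5.39% of genes. In the inducible knockouts 1 of 25 reached it, against 6.01% of genes. It was Numa1, a spindle pole protein, at -0.17 ± 0.070 (SE). Counts so near these shares do not set the list apart from all genes. The median log2 fold change was -0.045 in the germline knockouts and -0.017 in the inducible ones. Without germline knockout replicate 2 the median turned to 0.052, with 16 of 25 above 0, against 44.2% of genes. Prc1, the midzone protein that recruits Kif4, had 0.032 ± 0.11 and -0.017 ± 0.056, and Tpx2, which targets Kif11 and Kif15 to the spindle, 0.037 ± 0.12 and -0.052 ± 0.064. In germline knockout replicate 2, 13 of the 25 were at their lowest value of the 6 libraries, against 30.5% of genes tested, beside 3 of 10 mitotic kinesins. The CHR letters stood in 14 of the 22 spindle partners with a promoter window and in 2 of 23 transport partners, against 20.2% of genes.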

How the data were processed

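Poly(A) RNA libraries of E12.5 forebrain were sequenced by the authors and aligned to mm9 with TopHat, version 1.2.0 in the submitters' processing notes, while the methods name another version. The authors counted reads over RefSeq exons and normalized the counts by TMM in edgeR. The deposited values are this signal, normalized counts per gene that are no longer whole numbers, in 1 table per experiment. Whether the counting used strand is not given in the sources used here. The 2 tables were normalized separately and tested separately.

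Libraries were grouped by their labels, and 0 per-sample columns were left unused. Genes averaging 10 or more normalized counts entered the test as log2(normalized count + 1) with limma 3.58.1 (empirical Bayes with a mean-variance trend, R 4.3.3), with Benjamini-Hochberg adjustment over all genes tested. The pseudocount of 1 understates changes of low genes. The study's thresholds were a 1.5-fold change with P of at most 0.05. Depth is known only through the normalized totals, so no counting intervals are given. Levels between genes are per kilobase of exon (GENCODE annotation of the mm9 assembly, all exons of a gene merged). Reads were counted over RefSeq exons, which can be shorter, and this limits ranks between genes. The script was tested on simulated data.

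Kinesins named with values were the 2 with the largest absolute change in each class and comparison, the 3 of highest level in each class and those without overlap. Kif1a, Kif3a, Kif3c, Kif4, Kif5a, Kif13a, Kif14, Kif18a, Kif21b, Kif24 and Kif27, where outside this rule, and the Y-linked genes were chosen after their values were seen. Members and lists were chosen with earlier results of these data known. Alternatives were other pseudocounts, no filter, other scalings, a per-length scale, no trend, array weights, a replicate block and leaving out each library.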

Additional observations from a re-analysis of the deposited data

Results flagged for a closer look

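For 8 of the 35 kinesins, every germline knockout library lay on one side of the wild-type mean and every inducible knockout library on the other, against 10.8% of the 13741 genes tested in both comparisons. The difference between the comparisons was not tested. In 7 of the 8 the germline knockouts were the higher ones. The germline and inducible log2 fold changes were 0.67 and -0.097 for the spindle motor Kifc5b. They were 0.52 and -0.43 for Kif26b and 0.38 and -0.085 for Kif7. Kif13a, a motor of endosomes, had 0.30 and -0.054, Kif13b 0.17 and -0.13, and Kif16b 0.13 and -0.25. The chromosome motor Kif22 had 0.053 and -0.058. Kif3b was the 1 gene with lower germline knockouts, at -0.40 and 0.0091. Without knockout replicate 2 the germline values were 0.31 for Kifc5b, 0.33 for Kif26b, 0.31 for Kif7 and 0.037 for Kif13b. They were then 0.39 for Kif13a, 0.15 for Kif16b, 0.076 for Kif22 and -0.40 for Kif3b.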

How the results depend on the processing

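Of the 7 kinesins that passed the study's thresholds under some alternative, Kifc1, Kifc5b and Kif26b (germline) and Kif6 and Kif27 (inducible) kept their direction under all alternatives run. Germline Kif5c and Kif21b did not: they ran from -0.65 to 0.064 and from -0.71 to 0.16, above 0 when either knockout replicate 1 or 3 was left out, and Kif21b also without wild-type replicate 2, at 0.0023. The number of kinesins past the study's thresholds in the germline comparison, 0, became 1 with quantile normalization, with equal totals and with median-of-ratios factors (Kifc5b each time), 2 with array weights (Kif5c and Kif21b) and 0 to 3 with 1 library left out. In the inducible comparison it was 0 to 1 with 1 library left out and 0 otherwise. Leaving out 1 library gave a median log2 fold change of the transport kinesins of -0.35 to 0.20 in the germline comparison, the lowest without knockout replicate 2, and of -0.040 to 0.12 in the inducible one. For the mitotic kinesins it gave 0.0067 to 0.16 and -0.097 to 0.0027. The knockout minus wild-type contrast of mitotic minus transport ran from 0.054 to 0.50 and from -0.21 to 0.047. The log2 fold change of Kif20a ran from -2.66 to -2.44 and from -0.74 to -0.67, and its adjusted p (limma) from 0.00113 to 0.185 and from 0.0145 to 0.193 in fits with 1 library fewer. Without a mean-variance trend the inducible value was -0.70 with an adjusted p of 0.147, and the cause was not tested. Same-numbered libraries had correlations of -0.12, 0.31 and 0.25 between their deviations in the germline table. There knockout replicates 2 and 3 correlated best with their own number, and replicate 1 with wild-type replicate 3, at 0.33. In the inducible table they were -0.35 and -0.051, but the deviations of 2 wild types are exact opposites, so these cannot test pairing. The paper says that littermates were collected, but the labels do not name litters, so the numbers were not taken to pair samples. With the replicate block, 0 kinesins passed in either comparison, the inducible transport median was 0.0043 and inducible Kif20a was at -0.67 with an adjusted p of 0.3 (limma), knockout replicate 3 having no partner in that fit. Count models were not run, since whole reads could not be recovered from the normalized values. The small number of libraries and the spread between germline knockouts limit the size of change that these tests can call.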
